A study of Homo sapiens with 30 samples.

Results

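Cells given the ethanol extract of Yijin-tang at 500 µg/mL were set against cells given the ethanol extract of Okbyeongpung-san at the same dose, a contrast between a pair of herbal decoctions in one cell line at one dose and time. The libraries were taken by their labels, and 5 of the 30 libraries of the series belong to the contrast. They are replicates 1, 2 and 3 of Yijin-tang 500 µg/mL and replicates 2 and 3 of Okbyeongpung-san 500 µg/mL. All were made from A549, a human non-small cell lung carcinoma line with alveolar epithelial features, grown in RPMI medium with serum and exposed for 24 h. The same extracts at 100 and 20 µg/mL, again with 3 Yijin-tang and 2 Okbyeongpung-san libraries at each dose, and 3 Vehicle libraries were used as context. The sample labels give the Vehicle as 0.1% DMSO, while the series text gives 2%, so its solvent level is uncertain, and the labels used here give none for the extract libraries. The labels do not say whether replicates are separate cultures, so the spread between libraries may be technical. P-values rest on that spread as estimated over 27 libraries in 10 groups, not over the 5 libraries alone.

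Yijin-tang is a Korean decoction traditionally built on Pinellia tuber, citrus peel, Poria, licorice and ginger. Okbyeongpung-san is built on Astragalus root, Atractylodes rhizome and Saposhnikovia root. The genes with the smallest p-values between the extracts belong to sterol-regulated lipid synthesis. When a cell's membranes are short of cholesterol, the escort protein SCAP carries the SREBP transcription factors from the endoplasmic reticulum to the Golgi, where they are cut and released to the nucleus. There they switch on genes of cholesterol synthesis, fatty acid synthesis and desaturation, and lipoprotein uptake. When sterols are plentiful, INSIG proteins hold SCAP back in the endoplasmic reticulum and these genes fall together.

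The total count per library was 29221167, 31129773 and 33479354 for Yijin-tang 500 µg/mL, and 38008449 and 27540403 for Okbyeongpung-san 500 µg/mL replicates 2 and 3. The 2 Okbyeongpung-san libraries stood apart from each other. A chi-square test of their counts gave 38.2 per degree of freedom, against 5.15 to 8.52 for the 3 Yijin-tang 500 µg/mL pairs and 2.00 to 17.6 for replicate pairs of all other groups. Mitochondrially encoded mRNAs took 6.83, 8.10 and 7.44% of counts in the Yijin-tang libraries, and 9.89% in replicate 2 and 6.73% in replicate 3 of Okbyeongpung-san, beside 10.5 to 10.9% in Vehicle. Replicate 3 of Okbyeongpung-san carries the batch letter D in its title, and all 3 Yijin-tang libraries and replicate 2 of Okbyeongpung-san carry E. The labels do not say what the letter stands for. Every main result is therefore given with both Okbyeongpung-san libraries and also without replicate 2, and, where it bears on the call, within batch E, which leaves out replicate 3. With 1 Okbyeongpung-san library left, that library is assumed to vary like those of the other groups.

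The markers of the line were in place. All 11 A549 markers on the list (keratins KRT8, KRT18 and KRT7, EPCAM, CDH1 and detoxifying enzymes typical of the line) were above the filter on low counts, and edgeR called 0 of them between the extracts, with 3 at an unadjusted p below 0.05 and 1 called by DESeq2. Of 12 immune cell markers 3 passed the filter and 5, among them PTPRC, CD3E and HBB, were at 0 in the 5 libraries. LYZ did not pass the filter, with 1, 0 and 1 counts with Yijin-tang, and 47 in replicate 2 and 0 in replicate 3 of Okbyeongpung-san. The 3 measured ones summed to 12.4, 16.0 and 13.8 CPM (counts scaled to library size) with Yijin-tang, against 22.9 and 14.1 CPM with Okbyeongpung-san, and 1 of them, CD14, was lower with Yijin-tang (adjusted p = 0.0294). The 6 measured of 10 fibroblast markers summed to 53.7, 52.4 and 49.9 CPM with Yijin-tang, against 48.2 and 41.0 CPM with Okbyeongpung-san. edgeR and DESeq2 called 0 of the 6, and 3 had an unadjusted p below 0.05. Over all 17459 genes tested, 3109 had an unadjusted p below 0.05, and DESeq2 called 497. None of the 9 endothelial markers passed the filter, and VWF, KDR and ERG were at 0 in all 5 libraries.

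At 500 µg/mL, cells given Yijin-tang held more mRNA of the sterol-regulated lipid programme than cells given Okbyeongpung-san. The edgeR quasi-likelihood test called 403 of 17459 genes at an adjusted p below 0.05, which is 2.31% of genes tested, with 149 higher (0.853%) and 254 lower (1.45%) with Yijin-tang. Among the 26 cholesterol synthesis and uptake genes 18 were higher and 0 lower, with a median log2 fold change of 0.43. Among the 17 measured of 18 fatty acid synthesis genes 9 were higher and 0 lower, with a median of 0.28. The median over all genes tested was 0.00. Without replicate 2 of Okbyeongpung-san, 39 of 17931 genes (0.218%) were called, 31 higher (0.173%) and 8 lower (0.0446%), and 13 cholesterol and 4 fatty acid members were higher, with medians of 0.44 and 0.26. Within batch E 17 and 9 members were higher, beside 2199 of 17947 genes (12.3%) higher and 1937 (10.8%) lower overall. With the batch letter as a term 18 and 9 members were higher and 0 lower, beside 9.8% of genes called, 4.42% higher and 5.38% lower. In RNA from whole cultures, fewer cells expressing a gene and less RNA per cell cannot be told apart.

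SCD, the stearoyl-CoA desaturase that makes monounsaturated fatty acids, had the smallest p-value of the contrast. SCD (ENSG00000099194, chr10:100347124-100364834, plus strand, GRCh38) had 1516, 1671 and 1546 CPM with Yijin-tang, against 634.5 and 661.6 CPM with Okbyeongpung-san. The groups did not overlap, and both Okbyeongpung-san libraries lay close together. Groups did not overlap in 397 of the 403 called genes. Over all genes tested, the Yijin-tang libraries lay wholly above in 11.2% and wholly below in 11.8%. For a called gene, here and below, groups that do not overlap are therefore no separate support. The log2 fold change was 1.28 ± 0.06 (SE, adjusted p = 9.4e-13). INSIG1, which retains SCAP in the endoplasmic reticulum and is itself a target of the pathway, had 45.5, 49.1 and 46.9 CPM with Yijin-tang, against 22.3 and 22.3 CPM with Okbyeongpung-san. Its log2 fold change was 1.08 ± 0.08 (adjusted p = 2.77e-09). HMGCS1, the HMG-CoA synthase that feeds the mevalonate pathway, had 199.0, 192.3 and 205.9 CPM with Yijin-tang, against 99.0 and 123.9 CPM with Okbyeongpung-san, a log2 fold change of 0.84 ± 0.07 (adjusted p = 8.3e-08). Its Yijin-tang libraries lay within a narrow band and the Okbyeongpung-san libraries stood below, replicate 2 lowest. LPIN1, a phosphatidate phosphatase of glycerolipid synthesis, had 70.8, 69.5 and 66.7 CPM with Yijin-tang, against 40.9 and 41.5 CPM with Okbyeongpung-san, a log2 fold change of 0.74 ± 0.05 (adjusted p = 2.77e-09).

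The promoters of 4 of the called lipid genes are shown because genes of these pathways are known as SREBP targets. SREBP sites often stand beside boxes for the factor NF-Y. Each runs from 250 bases before to 50 bases after the start of the gene in RefSeq (GRCh38.p14), 5′ to 3′ in the direction of the gene. Capitals mark a sterol regulatory element (searched as TCACNCCAC) or an NF-Y box (searched as CCAAT), each on both strands, so that GTGGNGTGA and ATTGG are the same motifs read from the other strand. The window of SREBF2, which encodes the SREBP that drives cholesterol synthesis, is chr22:41832855-41833154 (plus strand), that of SCD chr10:100346983-100347282 (plus strand), that of HMGCS1 chr5:43313363-43313662 (minus strand) and that of INSIG1 chr7:155297628-155297927 (plus strand).
SREBF2: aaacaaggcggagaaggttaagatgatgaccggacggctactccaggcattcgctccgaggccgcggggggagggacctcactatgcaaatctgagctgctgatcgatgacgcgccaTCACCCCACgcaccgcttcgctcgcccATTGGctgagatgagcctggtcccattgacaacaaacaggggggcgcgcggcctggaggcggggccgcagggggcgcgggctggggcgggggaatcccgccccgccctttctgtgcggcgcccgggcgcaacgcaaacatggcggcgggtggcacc
SCD: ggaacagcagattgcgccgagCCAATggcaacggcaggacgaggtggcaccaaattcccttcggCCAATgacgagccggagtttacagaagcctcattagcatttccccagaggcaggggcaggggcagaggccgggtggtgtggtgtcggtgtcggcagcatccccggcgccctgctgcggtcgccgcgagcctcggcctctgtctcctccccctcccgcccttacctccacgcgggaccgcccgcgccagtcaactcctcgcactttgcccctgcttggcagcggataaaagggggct
HMGCS1: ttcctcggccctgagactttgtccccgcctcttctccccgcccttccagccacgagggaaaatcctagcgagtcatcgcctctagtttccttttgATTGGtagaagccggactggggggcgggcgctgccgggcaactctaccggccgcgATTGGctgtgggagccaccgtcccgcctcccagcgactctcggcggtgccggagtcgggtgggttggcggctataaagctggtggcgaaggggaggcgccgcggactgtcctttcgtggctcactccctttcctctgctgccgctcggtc
INSIG1: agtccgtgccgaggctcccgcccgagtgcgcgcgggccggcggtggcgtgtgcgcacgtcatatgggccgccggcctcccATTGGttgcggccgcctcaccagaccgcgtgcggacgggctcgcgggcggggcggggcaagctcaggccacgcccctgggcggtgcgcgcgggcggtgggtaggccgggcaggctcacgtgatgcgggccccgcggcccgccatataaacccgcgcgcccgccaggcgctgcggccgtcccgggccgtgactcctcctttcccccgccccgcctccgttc

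In the SREBF2 promoter the sterol regulatory element begins 133 bases and the NF-Y box 106 bases before the start. SCD holds NF-Y boxes beginning 229 and 186 bases before its start, HMGCS1 at 155 and 100 bases, and INSIG1 at 170 bases. Of the 27 lipid genes that were higher with Yijin-tang, 21 matched a promoter in the table. The NF-Y letters were in 14 of the 21 (66.7%), against 36.1% of the 11865 promoters of genes tested and 35.7% of all 27305 promoters. Of the 16 measured lipid genes that were not called, 13 matched a promoter. The NF-Y letters were in 9 of these 13 (69.2%), a share close to that of the called genes. The sterol regulatory element letters were in 1 of the 21 (4.76%), against 1.06% of promoters of genes tested and 1.15% of all promoters. The GC box GGGCGG was in 19 (90.5%), against 68.6% of promoters of genes tested, and the E-box CACGTG in 3 (14.3%), against 9.91%. The 13 matched promoters of lipid genes not called held the sterol regulatory element in 1 (7.69%), the GC box in 10 (76.9%) and the E-box in 1 (7.69%). These matches describe the letters in this window and do not show that a factor was bound.

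**Figure D1:**
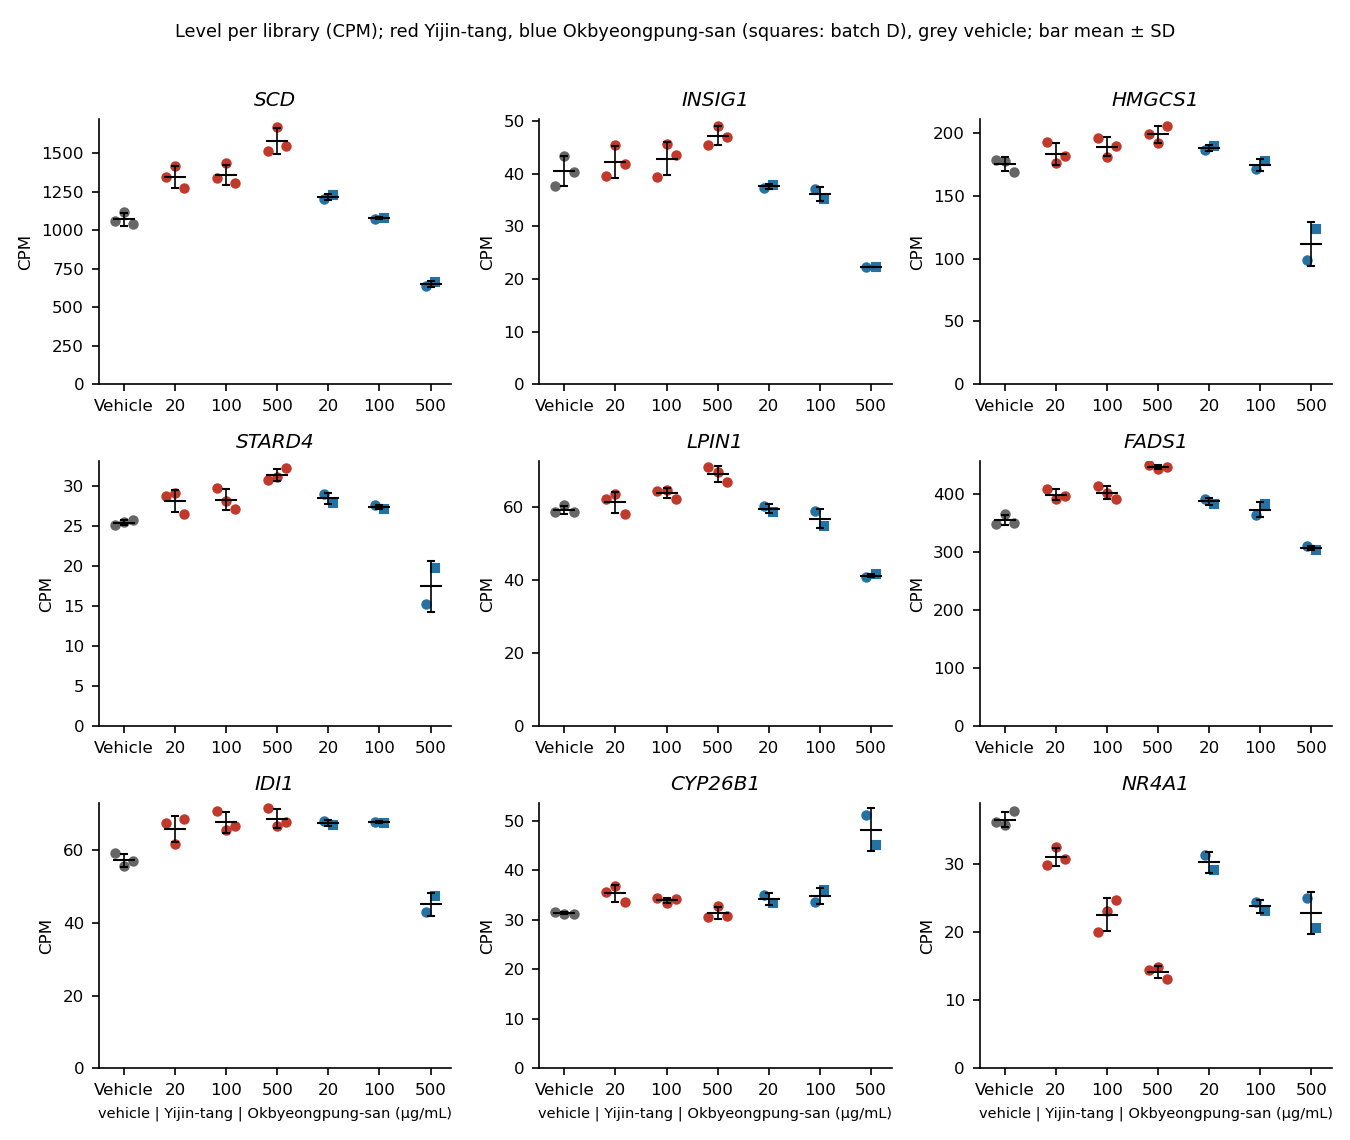
Level (CPM) of 9 genes in each library of Vehicle and of Yijin-tang and Okbyeongpung-san at 20, 100 and 500 µg/mL. Points are libraries, squares are batch D, and bars are the mean ± SD. At 500 µg/mL SCD lies between 1516 and 1671 CPM with Yijin-tang and at 634.5 and 661.6 CPM with Okbyeongpung-san.

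Through the mevalonate pathway and on to sterols, called genes stood at several steps. MVK, mevalonate kinase, had 27.6, 26.5 and 25.5 CPM with Yijin-tang, against 21.04 and 16.91 CPM with Okbyeongpung-san. IDI1, the isopentenyl diphosphate isomerase, had 71.6, 66.8 and 68.0 CPM with Yijin-tang, against 43.0 and 47.4 CPM with Okbyeongpung-san, a log2 fold change of 0.61 ± 0.07. MVK and IDI1 kept their call without each library in turn, and in both genes the groups did not overlap. At the entry to the sterol branch, FDFT1 (squalene synthase) had 142.1, 132.9 and 135.0 CPM with Yijin-tang, against 100.4 and 95.7 CPM with Okbyeongpung-san. SQLE (squalene epoxidase) had 130.5, 146.4 and 146.2 CPM with Yijin-tang, against 99.7 and 101.7 CPM with Okbyeongpung-san. LSS (lanosterol synthase) had 48.8, 47.0 and 47.1 CPM with Yijin-tang, against 31.8 and 29.9 CPM with Okbyeongpung-san. The log2 fold changes of these 3 genes were 0.48 ± 0.05, 0.49 ± 0.06 and 0.63 ± 0.07, and their calls held without each library in turn. The later enzymes were less firm. DHCR7, which makes cholesterol from its last precursor, was higher by a log2 fold change of 0.49 ± 0.08 and kept the call throughout, while CYP51A1 (0.52 ± 0.09) and MSMO1 (0.53 ± 0.08) did not pass without replicate 2 (adjusted p = 0.226 and 0.0959).

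STARD4, a carrier that moves cholesterol between membranes, had 30.7, 31.0 and 32.2 CPM with Yijin-tang, against 15.2 and 19.7 CPM with Okbyeongpung-san, a log2 fold change of 0.85 ± 0.08. Every Yijin-tang library lay above both Okbyeongpung-san libraries, and the call held without each library in turn. SREBF2 itself differed less. It had 133.6, 130.1 and 126.9 CPM with Yijin-tang, against 116.6 and 94.9 CPM with Okbyeongpung-san, a log2 fold change of 0.30 ± 0.06 (adjusted p = 0.0153), which did not pass within batch E (adjusted p = 0.0551).

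Among the fatty acid genes the desaturases stood out beside SCD. FADS2 had 581.6, 587.2 and 551.0 CPM with Yijin-tang, against 397.1 and 327.1 CPM with Okbyeongpung-san, a log2 fold change of 0.66 ± 0.07 (adjusted p = 9.64e-07). FADS1 had 449.1, 442.5 and 446.1 CPM with Yijin-tang, against 309.2 and 303.9 CPM with Okbyeongpung-san, a log2 fold change of 0.54 ± 0.05 (adjusted p = 8.3e-08). The pair makes long polyunsaturated fatty acids and lies side by side, overlapping on opposite strands of chromosome 11. SCD, LPIN1, FADS1 and FADS2 were the 4 members that passed without replicate 2. ACACA, the acetyl-CoA carboxylase that commits carbon to fatty acids, had 251.8, 270.8 and 264.0 CPM with Yijin-tang, against 188.5 and 212.6 CPM with Okbyeongpung-san (log2 fold change 0.39 ± 0.06, adjusted p = 0.0927 without replicate 2). ACLY, ELOVL5, ELOVL6 and ACSL3 were called with log2 fold changes of 0.16 to 0.37 and likewise did not pass without replicate 2. FASN, the fatty acid synthase, had 551.0, 541.1 and 481.1 CPM with Yijin-tang, against 461.4 and 371.0 CPM with Okbyeongpung-san, and was not called (0.33 ± 0.11, adjusted p = 0.123). SREBF1, which encodes the SREBP most tied to fatty acid synthesis, was not called either (0.22 ± 0.10, adjusted p = 0.266), and its groups overlapped.

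**Figure D2:**
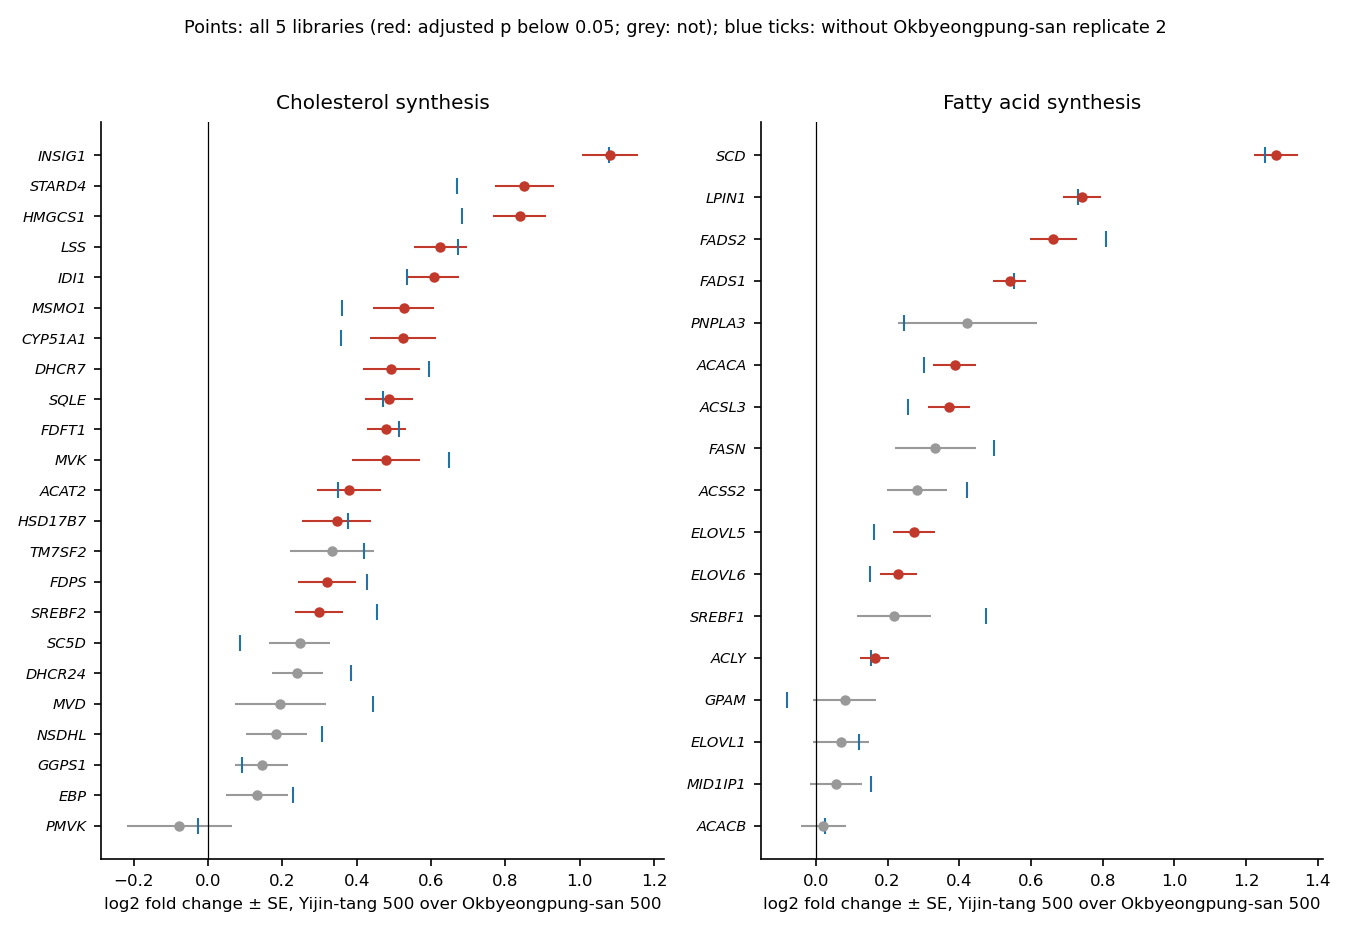
Log2 fold change of Yijin-tang over Okbyeongpung-san at 500 µg/mL for 23 of the 26 cholesterol and all 17 fatty acid genes measured, points with SE bars. Blue ticks give the value without replicate 2 of Okbyeongpung-san. The cholesterol values reach 1.08 (INSIG1) and the fatty acid values 1.28 (SCD), and PMVK is the 1 gene below 0, at -0.08.

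Both extracts were also set against Vehicle. For 36 of the 43 lipid genes all 3 Yijin-tang libraries lay above both Okbyeongpung-san libraries, against 11.2% of all genes tested. For 32 of the 43 all Yijin-tang libraries also lay above all 3 Vehicle libraries, against 20.2% of all genes. For 25 both Okbyeongpung-san libraries lay below all 3 Vehicle libraries, against 18.5%. Against Vehicle, 14 cholesterol genes were higher with Yijin-tang and 0 lower, beside 15.7% of all genes called, 8.12% higher and 7.56% lower. Against the same Vehicle libraries, 1 cholesterol gene was higher with Okbyeongpung-san and 11 were lower, beside 7.19% of all genes higher and 7.76% lower. The fatty acid genes gave 5 higher and 0 lower with Yijin-tang, and 0 higher and 9 lower with Okbyeongpung-san. SCD averaged 1577 ± 82.2 CPM with Yijin-tang (SD, n = 3), 648.1 ± 19.2 CPM with Okbyeongpung-san (n = 2) and 1072 ± 42.2 CPM in Vehicle (n = 3). INSIG1 averaged 47.2 ± 1.80 CPM with Yijin-tang, 22.3 ± 0.0323 CPM with Okbyeongpung-san and 40.4 ± 2.86 CPM in Vehicle. Both comparisons share the Vehicle libraries, whose mitochondrial mRNA share was above that of every extract library in the contrast. The comparison of Okbyeongpung-san with Vehicle was not repeated without replicate 2. Some lipid genes were above Vehicle with both extracts already at 20 µg/mL, and others were not. At that dose IDI1 averaged 66.0 CPM with Yijin-tang and 67.5 CPM with Okbyeongpung-san, beside 57.3 CPM in Vehicle. FADS1 averaged 398.5 and 386.7 CPM, beside 354.1 CPM. SQLE averaged 133.6 and 119.7 CPM, beside 127 CPM. A level above Vehicle at 500 µg/mL is thus not always particular to that dose.

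At the lower doses edgeR did not tell the extracts apart gene by gene. At 100 µg/mL and at 20 µg/mL edgeR called 0 of 17459 genes (0.0%) between Yijin-tang and Okbyeongpung-san, with 795 and 847 genes at an unadjusted p below 0.05, and DESeq2 called 4 and 1. The cholesterol median was 0.04 at 20, 0.13 at 100 and 0.43 at 500 µg/mL, and the fatty acid median 0.03, 0.09 and 0.28. At 100 µg/mL 23 of 26 cholesterol and 15 of 17 fatty acid genes had a log2 fold change above 0, beside 8773 of all 17459. At 20 µg/mL 17 and 15 did, beside 8653 of all genes. SCD with Yijin-tang averaged 1346 CPM at 20, 1357 CPM at 100 and 1577 CPM at 500 µg/mL, and with Okbyeongpung-san 1216, 1078 and 648.1 CPM. The Yijin-tang mean at 500 µg/mL lay above those at its lower doses, and the Okbyeongpung-san mean at 500 µg/mL far below its own. At 20 µg/mL both extracts lay above the Vehicle mean of 1072 CPM. Across the doses the same order of means held for INSIG1, with 42.3, 42.8 and 47.2 CPM for Yijin-tang and 37.6, 36.1 and 22.3 CPM for Okbyeongpung-san. Against its Vehicle mean of 40.4 CPM, INSIG1 at 20 µg/mL was above with Yijin-tang and below with Okbyeongpung-san.

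The difference between the dose effects was tested directly, as the change of Yijin-tang 500 over 20 µg/mL minus that of Okbyeongpung-san 500 over 20 µg/mL. It called 28 genes (0.16%), 15 higher (0.0859%) and 13 lower (0.0745%). Of the 15 higher genes 11 belong to the lipid lists, namely SCD, INSIG1, HMGCS1, STARD4, LPIN1, IDI1, CYP51A1, LSS, FADS2, FADS1 and FDFT1. Of these 28 genes all had also been called at 500 µg/mL, a contrast that shares the 5 libraries, and 14 genes (0.0781%), 10 higher (0.0558%) and 4 lower (0.0223%), were called without replicate 2 of Okbyeongpung-san. More of these genes were called in the Okbyeongpung-san step than in the Yijin-tang step. Of the 28 genes 5 were called between Yijin-tang 500 and 20 µg/mL, where 0.705% of all genes were called. Between Okbyeongpung-san 500 and 20 µg/mL 26 were called, where 1.59% of all genes were. Both steps enter the test that chose the 28 genes, so the shares of all genes are no background for these counts. The Okbyeongpung-san step was not repeated without replicate 2. SCD rose by 0.23 ± 0.05 (log2) with Yijin-tang 500 over 20 µg/mL and fell by 0.91 ± 0.06 with Okbyeongpung-san, a difference of 1.14 ± 0.08 (adjusted p = 1.18e-08). The log2 change of INSIG1 was 0.16 ± 0.06 with Yijin-tang (adjusted p = 0.483), and INSIG1 fell by 0.75 ± 0.08 with Okbyeongpung-san. Over the cholesterol list edgeR called 0 genes in either direction with Yijin-tang between these doses, while with Okbyeongpung-san 0 rose and 11 fell, beside 0.979% of all genes higher and 0.613% lower. For 11 of the 43 lipid genes all Yijin-tang libraries at 500 µg/mL lay above all at 20 µg/mL, against 6.12% of all genes, and for 32 both Okbyeongpung-san libraries at 500 µg/mL lay below both at 20 µg/mL, against 20.0%. Over the fatty acid list 1 gene, SCD, rose with Yijin-tang, beside 0.286% of all genes higher, and 7 fell and 0 rose with Okbyeongpung-san.

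**Figure D3:**
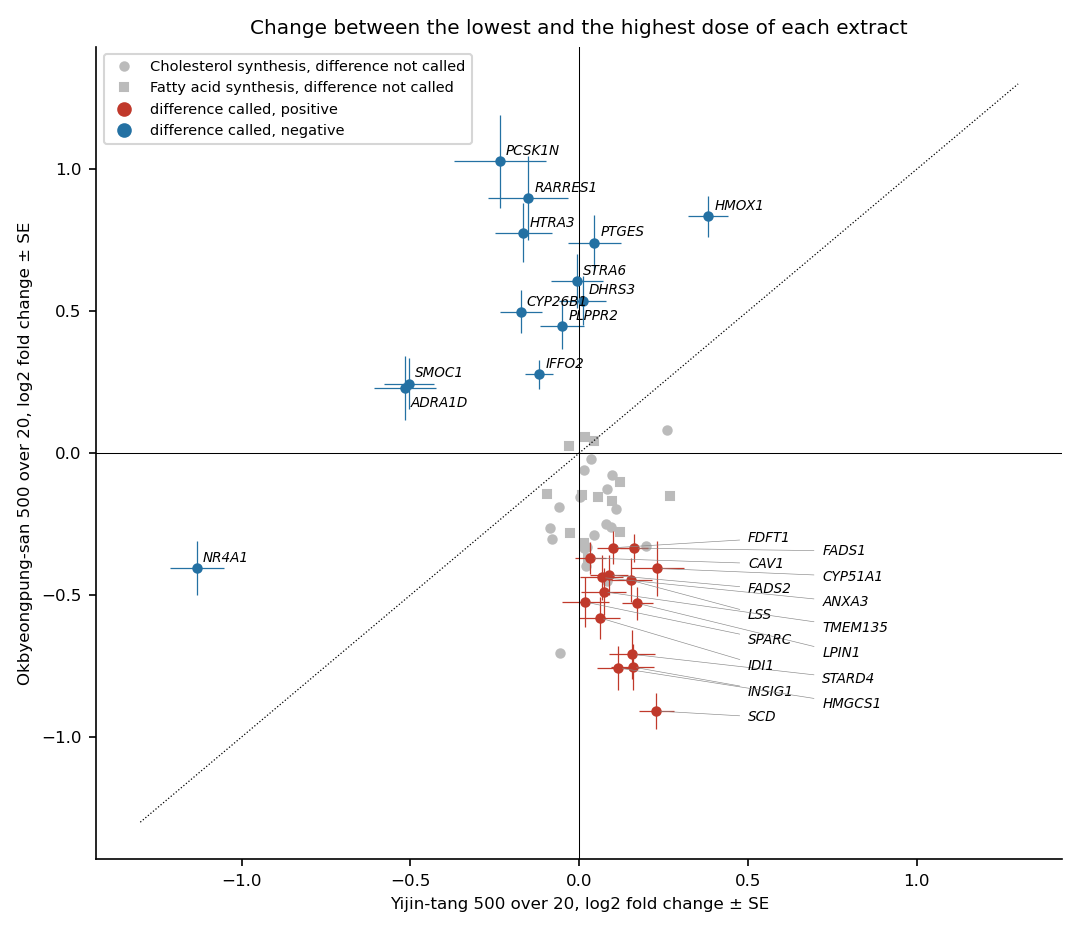
Log2 fold change of 500 over 20 µg/mL with Yijin-tang (horizontal) and Okbyeongpung-san (vertical), coloured with SE bars for the 28 genes whose dose effects differed and grey for the other lipid genes; the dotted line marks equal effects. SCD is at 0.23 with Yijin-tang and at -0.91 with Okbyeongpung-san, and NR4A1 at -1.13 and -0.40.

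The 13 genes on the other side of this test were also lower with Yijin-tang at 500 µg/mL. CYP26B1, which breaks down retinoic acid, had 30.5, 32.8 and 30.7 CPM with Yijin-tang, against 51.2 and 45.1 CPM with Okbyeongpung-san, a log2 fold change of -0.62 ± 0.07 (adjusted p = 5.81e-06). Vehicle averaged 31.3 ± 0.218 CPM, so the Okbyeongpung-san libraries lay above Vehicle and the Yijin-tang libraries near it. DHRS3, a retinaldehyde reductase, had 64.1, 59.8 and 57.7 CPM with Yijin-tang, against 99.9 and 77.6 CPM with Okbyeongpung-san (-0.56 ± 0.08). STRA6, a retinol transporter, had 49.4, 52.2 and 51.1 CPM with Yijin-tang, against 75.0 and 63.1 CPM with Okbyeongpung-san (-0.44 ± 0.09). RARRES1, named for its induction by retinoic acid receptors, had 4.61, 3.86 and 4.91 CPM with Yijin-tang, against 7.09 and 7.24 CPM with Okbyeongpung-san (-0.68 ± 0.13). Of the 254 genes called lower, 249 had groups that did not overlap. Groups did not overlap in any of these 4 genes, CYP26B1 and DHRS3 kept their calls without each library in turn, and STRA6 and RARRES1 did not pass without replicate 2 (adjusted p = 0.429 and 0.0927). HMOX1, the heme oxygenase, had 216.3, 214.5 and 214.9 CPM with Yijin-tang, against 290.6 and 249.9 CPM with Okbyeongpung-san, and averaged 144.8 ± 1.46 CPM in Vehicle. It was lower by a log2 value of -0.33 ± 0.06 between the extracts and did not pass without replicate 2 (adjusted p = 0.498).

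NR4A1, an orphan nuclear receptor induced as an immediate early gene, fell with both extracts. It had 14.5, 14.8 and 13.2 CPM with Yijin-tang, against 25.0 and 20.6 CPM with Okbyeongpung-san, a log2 fold change of -0.69 ± 0.09 (adjusted p = 4.54e-05). Vehicle averaged 36.6 ± 1.08 CPM, above all 5 libraries. Between 500 and 20 µg/mL NR4A1 fell by 1.13 ± 0.08 (log2) with Yijin-tang and by 0.40 ± 0.09 with Okbyeongpung-san, a difference of -0.73 ± 0.12 (adjusted p = 0.00534). The test of that difference did not pass without replicate 2 (adjusted p = 0.132), while the contrast at 500 µg/mL did (adjusted p = 0.0144). Of its relatives, NR4A2 and NR4A3 had log2 fold changes of -0.52 and -0.26 between the extracts and were not called. HTRA3, a secreted serine protease, had 21.8, 20.7 and 21.1 CPM with Yijin-tang, against 41.9 and 31.6 CPM with Okbyeongpung-san (-0.79 ± 0.09). PTGES, which makes prostaglandin E from its endoperoxide precursor, had 20.9, 22.7 and 21.7 CPM with Yijin-tang, against 37.9 and 32.9 CPM with Okbyeongpung-san (-0.70 ± 0.08). SMOC1, a matricellular calcium-binding protein, had 13.06, 12.49 and 10.97 CPM with Yijin-tang, against 20.1 and 19.2 CPM with Okbyeongpung-san (-0.69 ± 0.08). These 3 genes passed without each library in turn, as did IFFO2. Among genes with larger changes, C4orf48 and PCSK1N were less firm. C4orf48, a small open reading frame gene, had 4.58, 2.54 and 2.93 CPM with Yijin-tang, against 7.38 and 10.5 CPM with Okbyeongpung-san (-1.41 ± 0.35, adjusted p = 0.126 without replicate 2). PCSK1N, an inhibitor of a prohormone convertase, had 9.90, 8.40 and 7.25 CPM with Yijin-tang, against 19.9 and 13.5 CPM with Okbyeongpung-san (-0.98 ± 0.14, adjusted p = 0.102 without replicate 2).

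Some members of the TGF-beta and matrix list were higher with Yijin-tang. Of 25 genes 5 were higher and 0 lower, beside 0.853% of all genes higher and 1.45% lower, with a median log2 fold change of 0.18. Without replicate 2 there were 2 higher and 0 lower, beside 0.173% of all genes higher, and within batch E 8 higher and 2 lower, beside 12.3% higher and 10.8% lower. COL4A1, a basement membrane collagen chain, had 66.6, 71.4 and 67.4 CPM with Yijin-tang, against 50.6 and 53.2 CPM with Okbyeongpung-san (0.40 ± 0.06). COL4A1 is 1 of the 2 members that passed without replicate 2, and its Yijin-tang libraries were near the Vehicle mean of 68.1 CPM. TAGLN and COL5A1 had log2 fold changes of 0.45 ± 0.11 and 0.39 ± 0.09 and did not pass without replicate 2 (adjusted p = 0.107 and 0.429). Outside that list, SPARC, a matricellular collagen-binding protein, had 29.6, 30.3 and 28.7 CPM with Yijin-tang, against 19.5 and 18.0 CPM with Okbyeongpung-san, a log2 fold change of 0.65 ± 0.08 (adjusted p = 2.36e-05). CAV1, the scaffold of caveolae and also outside it, had 417.0, 426.2 and 413.4 CPM with Yijin-tang, against 296.9 and 322.2 CPM with Okbyeongpung-san, a log2 fold change of 0.44 ± 0.05 (adjusted p = 1.37e-05). The summed level of the fibroblast markers was likewise higher in all 3 Yijin-tang libraries than in both Okbyeongpung-san libraries, and its part in these values was not tested.

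Several lists moved in few members, or in members that replicate 2 decided. The shares of all genes given for the matrix list are the background for these counts too. Of 17 BMP and ID genes, GREM1, a secreted BMP antagonist, was higher (0.57 ± 0.12), and BAMBI, ID1 and ID4 were lower by log2 values of -0.46 ± 0.07, -0.40 ± 0.10 and -0.33 ± 0.08. Without replicate 2 edgeR called 0 of the 17, with 5 at an unadjusted p below 0.05. Of 18 integrated stress response genes 3 were higher and 0 lower, while within batch E 4 were higher and 3 lower. STC2, a secreted glycoprotein induced by that response, had 35.7, 33.8 and 33.2 CPM with Yijin-tang, against 25.6 and 24.4 CPM with Okbyeongpung-san (0.45 ± 0.07), and passed without replicate 2 (adjusted p = 0.0144), while TRIB3 (0.35 ± 0.09) and XPOT (0.24 ± 0.06) did not. Of 10 LXR targets ABCA1, the cholesterol efflux pump, and LPCAT3 were higher (0.70 ± 0.14 and 0.35 ± 0.08) and SMPDL3A was lower (-0.70 ± 0.19), none of them without replicate 2.

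The aryl hydrocarbon receptor is a sensor of many plant aromatics. Of 10 measured genes on its list, against Vehicle, 5 were higher and 1 lower with Yijin-tang, beside 8.12% of all genes higher and 7.56% lower. With Okbyeongpung-san 5 were higher and 2 lower, beside 7.19% and 7.76%. The lower genes were the receptor AHR with both extracts, and its partner ARNT with Okbyeongpung-san. CYP1A1 had 6.07, 5.86 and 6.12 CPM with Yijin-tang, against 4.62 and 3.34 CPM with Okbyeongpung-san, and averaged 0.872 ± 0.323 CPM in Vehicle. Between the extracts its log2 fold change was 0.59 ± 0.15 (adjusted p = 0.0432), which did not pass without replicate 2 (0.0641) or within batch E (0.106). CYP1B1 had 210.8, 227.6 and 228.7 CPM with Yijin-tang, against 161.2 and 188.8 CPM with Okbyeongpung-san, beside 100.9 CPM in Vehicle (0.35 ± 0.07 between the extracts). TIPARP had 77.6, 86.9 and 87.9 CPM with Yijin-tang, against 53.9 and 69.0 CPM with Okbyeongpung-san, beside 40.6 CPM in Vehicle (0.46 ± 0.08). In these 3 genes the extracts did not overlap, but edgeR called 0 of the 10 genes without replicate 2, with 5 at an unadjusted p below 0.05.

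**Figure D4:**
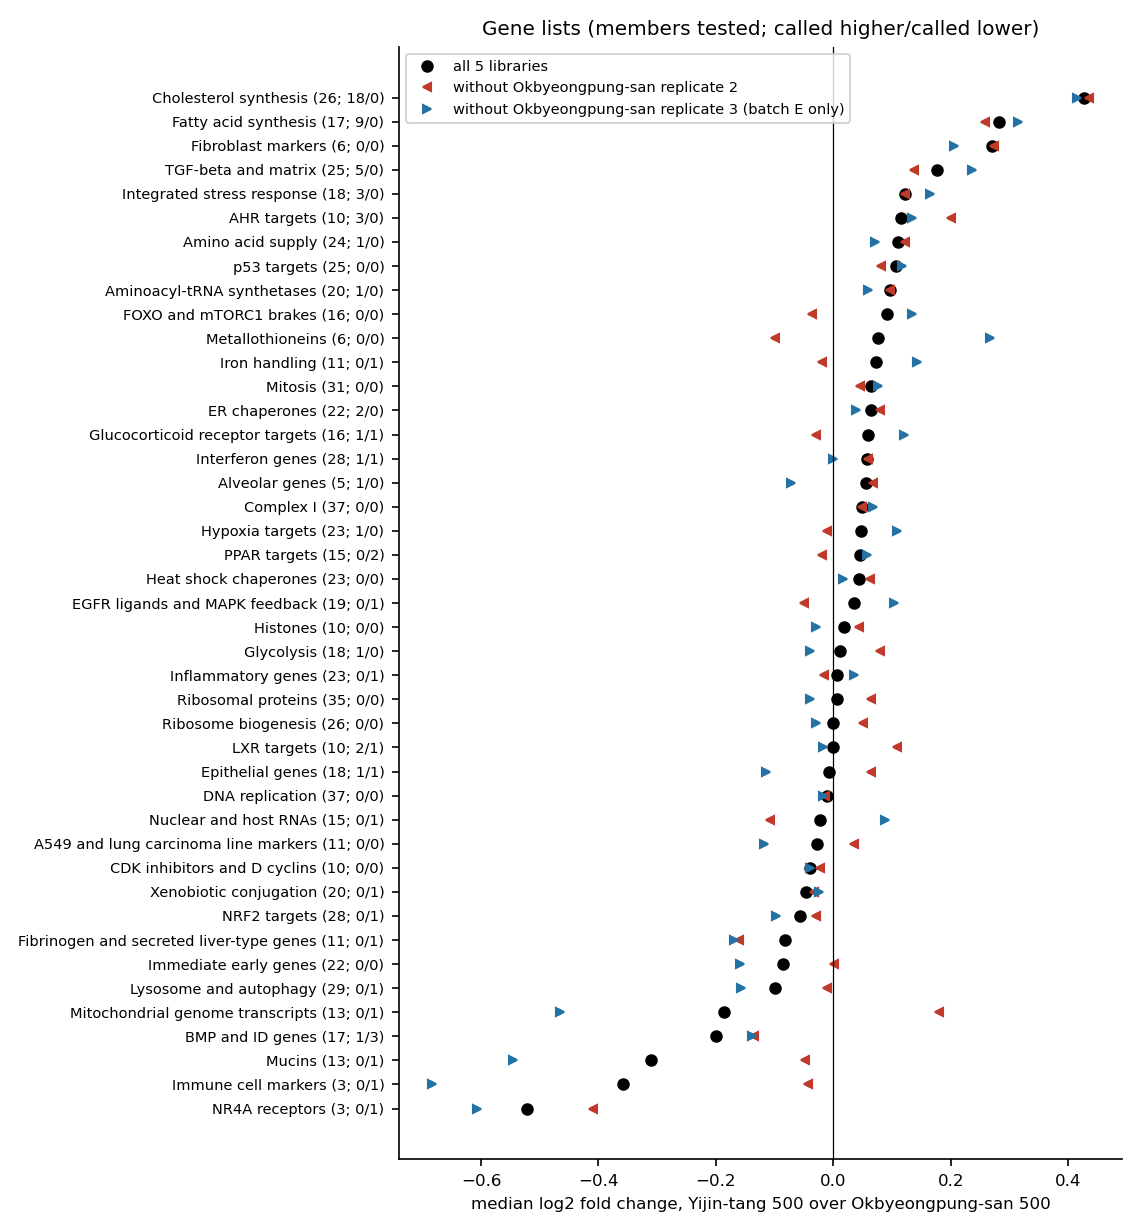
Median log2 fold change of Yijin-tang over Okbyeongpung-san at 500 µg/mL for each gene list, with both Okbyeongpung-san libraries, without replicate 2 and without replicate 3. The cholesterol median is 0.43, 0.44 and 0.42 in the 3 fits, while that of the mitochondrial mRNAs is -0.19, 0.18 and -0.47.

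The genes lower with Yijin-tang depended most on replicate 2 of Okbyeongpung-san. Of the 254 lower genes 240 had a higher level in replicate 2 than in replicate 3, and of the 149 higher genes 115 had a lower one, while 8499 of all 17459 genes were higher in replicate 2. MT-ATP8, a mitochondrially encoded subunit of ATP synthase, had 387.1, 561.7 and 399.4 CPM with Yijin-tang, against 1744 CPM in replicate 2 and 391.1 CPM in replicate 3 of Okbyeongpung-san. The call (log2 fold change -1.25 ± 0.33, adjusted p = 0.0425) was lost without replicate 2, where the value was 0.20 (adjusted p = 0.998). MT-ATP8 overlaps MT-ATP6, and reads on the overlap cannot be given to 1 of them with certainty. AKR1B15, an aldo-keto reductase with a close copy in AKR1B10, had 5.26, 4.41 and 4.94 CPM with Yijin-tang, against 16.1 CPM in replicate 2 and 5.87 CPM in replicate 3. Vehicle averaged 1835 ± 260.0 CPM for MT-ATP8 and 13.55 ± 1.33 CPM for AKR1B15, nearer to replicate 2 than to the other 4 libraries. The pseudogenes RPSAP12 and PTMAP5 had 11.62 and 15.81 CPM in replicate 2 and 3.90 and 8.16 CPM in replicate 3, beside Vehicle means of 8.02 and 13.91 CPM. Reads of a pseudogene and its parent gene can be hard to tell apart, so these counts are uncertain. In all 4 genes the Yijin-tang and Okbyeongpung-san means at 20 and 100 µg/mL lay below the Vehicle mean. MUC5B, a gel-forming airway mucin, had 40.1, 44.4 and 49.0 CPM with Yijin-tang, against 83.2 and 59.0 CPM with Okbyeongpung-san (-0.68 ± 0.17, adjusted p = 0.879 without replicate 2). MUC5AC, the other main airway mucin, had 185.2, 212.3 and 185.0 CPM with Yijin-tang, against 284.6 and 245.1 CPM with Okbyeongpung-san, and was not called (-0.45 ± 0.13, adjusted p = 0.0587). With the batch letter as a term edgeR called MUC5AC (-0.55 ± 0.13, adjusted p = 0.0129). Within batch E its log2 fold change was -0.54. The mitochondrial mRNA share of replicate 2, 9.89%, is nearest to that of Vehicle among the 5 libraries, and its part in these values was not tested.

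**Figure D5:**
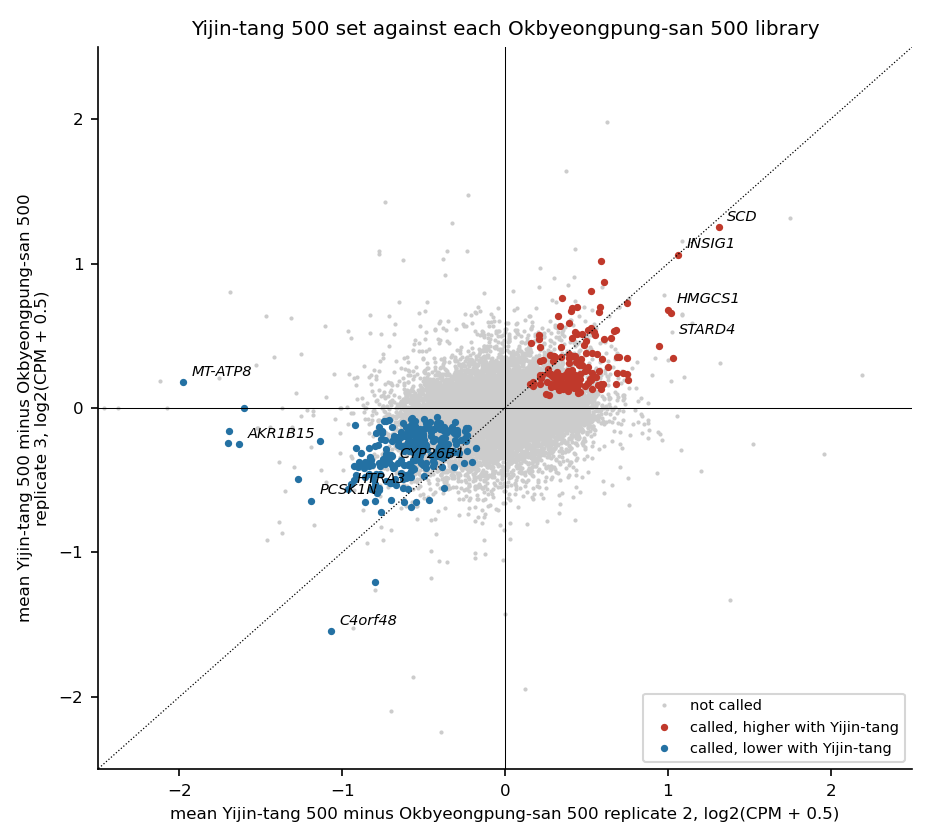
Difference in log2(CPM + 0.5) between the Yijin-tang 500 µg/mL mean and replicate 2 (horizontal) and replicate 3 (vertical) of Okbyeongpung-san, 1 point per gene, with called genes coloured. The axes stop at 2.5, which leaves out 8 of 17459 genes, 0 of them called. SCD and INSIG1 lie near the diagonal, while MT-ATP8 lies far from it.

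Across all genes 34 passed with both Okbyeongpung-san libraries and without each of the 5 libraries in turn, 27 higher and 7 lower with Yijin-tang, and 15 of the 34 are lipid genes of the lists. The lipid lists hold 43 of the 17459 genes tested. Outside the lists and the genes already named, DCDC2, EFEMP1, CYFIP2, FSTL1, ANXA3, TMEM135 and BAAT were among the 27. ANXA3, a calcium-dependent membrane-binding annexin, had 31.9, 34.3 and 33.4 CPM with Yijin-tang, against 23.2 and 22.7 CPM with Okbyeongpung-san (0.53 ± 0.07). TMEM135, a protein of peroxisomes and mitochondria, had 38.6, 41.4 and 41.7 CPM with Yijin-tang, against 23.9 and 31.8 CPM with Okbyeongpung-san (0.55 ± 0.08). BAAT, which conjugates bile acids to amino acids, had 19.8, 23.0 and 22.2 CPM with Yijin-tang, against 13.3 and 14.7 CPM with Okbyeongpung-san (0.63 ± 0.08).

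Other programmes gave no calls between the extracts with both Okbyeongpung-san libraries. On the lists for heat shock (23 genes measured), p53 targets (25), DNA replication (37), mitosis (31), cytosolic ribosomal proteins (35), mitochondrial complex I (37) and ribosome biogenesis (26), edgeR called 0 genes in either direction, beside 2.31% of all genes. Of these 214 genes 35 had an unadjusted p below 0.05, beside 3109 of all 17459. DESeq2 called 3 of them, beside 497 of all 17459. Within batch E 32 were higher and 15 lower, beside 12.3% and 10.8% of all genes, among them 8 higher and 1 lower for mitosis and 6 higher and 4 lower for heat shock. With the batch letter as a term 9 were higher and 5 lower, beside 4.42% and 5.38%. MKI67, a proliferation marker, had 579.8, 628.0 and 539.3 CPM with Yijin-tang, against 602.5 and 600.2 CPM with Okbyeongpung-san (-0.05 ± 0.10). NQO1, an NRF2 target that A549 expresses strongly, had 1730, 1598 and 1750 CPM with Yijin-tang, against 1678 and 1757 CPM with Okbyeongpung-san (-0.02 ± 0.06). The groups overlapped in both genes. CDKN1A, GDF15 and ASNS, readouts of p53 and amino acid stress, had log2 fold changes of 0.11 ± 0.08, -0.19 ± 0.11 and 0.17 ± 0.06 and were not called. Within batch E their log2 fold changes were 0.002, -0.32 and 0.22. A p-value that misses the threshold does not show that the extracts act alike on these genes. On simulated counts laid out like this contrast, the test recovered 91.2% of 80 genes changed 1.5-fold and all 55 changed 2-fold. It made 14 false calls among 17068 unchanged genes. The real Okbyeongpung-san libraries of this contrast stood further apart than any other replicate pair (chi-square of 38.2 per degree of freedom). The simulation drew each gene with the same dispersion in all groups and so did not carry the extra spread of that pair. Its figures therefore give no recovery or false-call rate for the real contrast.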

How the data were processed

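RNA of A549 cells was sequenced as directional mRNA libraries with 100 bp read pairs, per the labels' protocols. The submitters' processing notes name FastQC 0.11.9, Trim Galore 0.6.5, STAR 2.7.3a, RSEM 1.3.3 and the build GRCh38 (hg38). The annotation release and the strand setting used for counting are not given in the sources used here. The authors deposited 1 table of expected counts per gene for 60675 identifiers and 30 libraries; 30 further columns of that table were not used. Between 9.09 and 11.6% of values per library were not whole, and the expected counts were rounded to whole numbers. Total counts ran from 19833106 to 38008449 per library.

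Genes with low counts were removed (edgeR filterByExpr), leaving 17459. edgeR 4.0.16 (R 4.3.3) with TMM scaling and the quasi-likelihood test was fitted over 27 libraries in 10 groups, so that all groups share 1 estimate of the spread; Soyo-san, with 1 library per dose, was left out of the fit. The biological coefficient of variation was 6.89%. P-values were adjusted by Benjamini-Hochberg over all genes tested, and a gene was called at an adjusted p below 0.05. Each SE was obtained from the fold change (log2) and its F statistic. CPM values use the TMM-scaled library size and are not divided by gene length. Alternatives were DESeq2 1.42.0, other scaling and filters, a batch term, a replicate block and leaving out each library. Log2 differences in 1 plot use a pseudocount of 0.5 CPM.

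Gene names came from the supplied table (41209 identifiers with a symbol) and positions from GENCODE release 29 on GRCh38. Of 875 list symbols 872 matched, in 44 lists. Of the 69 genes with the most values in the text, 12 overlap a gene on the same strand and 38 a gene on the other strand, and with the strand setting unknown such reads cannot be told apart. The members and lists were chosen with earlier results of these data known. Genes were named by a rule: up to 15 called genes in each direction by size of change, averaging 2 or more in log2 CPM and with groups that do not overlap, up to 4 called members of each list with 3 or more, up to 6 in each direction for the difference of dose effects, and a fixed set of 12 readouts. Other genes named, among them CYP26B1, DHRS3, STRA6, HMOX1, SQLE, MVK, DHCR7, CAV1 and those called without each library in turn, were chosen after their values were seen. Some genes are counted in their lists and are not reported here by name. The test was tried on simulated counts before use.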

Additional observations from a re-analysis of the deposited data

Results flagged for a closer look

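The change between 20 and 500 µg/mL differed between Yijin-tang and Okbyeongpung-san for 28 genes in edgeR's interaction test (adjusted p below 0.05). Each value is the log2 change of Yijin-tang 500 over 20 µg/mL minus that of Okbyeongpung-san 500 over 20 µg/mL. For the sterol and fatty acid genes the difference was 1.14 for SCD, 0.91 for INSIG1, 0.87 for HMGCS1, 0.87 for STARD4, 0.70 for LPIN1, 0.64 for IDI1, 0.64 for CYP51A1, 0.60 for LSS, 0.52 for FADS2, 0.50 for FADS1 and 0.43 for FDFT1. For the other genes above 0 it was 0.56 for TMEM135, 0.54 for SPARC, 0.50 for ANXA3 and 0.40 for CAV1. Below 0 it was -0.40 for IFFO2, -0.45 for HMOX1, -0.50 for PLPPR2, -0.53 for DHRS3, -0.61 for STRA6, -0.67 for CYP26B1 and -0.70 for PTGES. It was -0.73 for NR4A1, -0.75 for ADRA1D, -0.75 for SMOC1, -0.94 for HTRA3, -1.05 for RARRES1 and -1.26 for PCSK1N. Of these 28 genes 14 were called without replicate 2 of Okbyeongpung-san 500 µg/mL.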

How the results depend on the processing

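The cholesterol and fatty acid counts kept their direction in every fit run: 0 members were called lower throughout, and without each library in turn 13 to 17 cholesterol and 4 to 9 fatty acid members were higher, 4 without replicate 2 of Okbyeongpung-san. The count at 500 µg/mL, 403 (149 higher, 254 lower), depended on the settings. Leaving out a library gave 39 to 4136 genes (31 to 2199 higher, 8 to 1937 lower), lowest without Okbyeongpung-san replicate 2 and highest without replicate 3; without Yijin-tang replicate 2 it gave 163 (57 higher, 106 lower) and without replicate 3 116 (52 higher, 64 lower). A batch term gave 1711 (772 higher, 939 lower), and no filter on low counts 909 (326 higher, 583 lower). A fit to the groups compared alone gave 3 (3 higher, 0 lower), with 1 cholesterol and 2 fatty acid members; with 5 libraries it has few degrees of freedom, and 1308 genes had an unadjusted p below 0.05. DESeq2 gave 497 and other size factors 404.

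For the difference of dose effects (28 genes) leaving out a library gave 10 to 2553 (10 and 18 without Okbyeongpung-san 20 µg/mL replicates 3 and 2, 14 and 2553 without 500 µg/mL replicates 2 and 3), DESeq2 66, a batch term 45, no filter 435 and the groups compared alone 4. At 100 µg/mL, where 0 genes were called, DESeq2 gave 4, no filter 127 and the groups compared alone 2, and at 20 µg/mL DESeq2 gave 1 and no filter 163.

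The labels give groups the same replicate numbers. Over 17459 genes the replicate 3 minus 2 differences of the extracts correlated at 0.19 at 500, -0.11 at 100 and -0.08 at 20 µg/mL, above 0.1 at 1 dose of 3, and the labels do not say what the number marks, so the libraries were not taken as paired. With a replicate block 622 genes were called at 500 µg/mL (276 higher, 346 lower) and 44 for the dose effects. The LXR list median, near 0, changed sign with a batch term (0.0456), no filter (0.0062), the replicate block (0.0048), without mitochondrial genes (0.0101), and without single libraries (-0.0171 to 0.1080). NQO1, near 0, ran from -0.0547 to 0.0196 without single libraries, above 0 without Okbyeongpung-san replicate 3 and Yijin-tang replicate 2 (0.0105). MT-ATP8 ran from -1.9495 to 0.1995, above 0 without Okbyeongpung-san replicate 2. The causes were not tested. The depth of 27540403 to 38008449 counts limits genes of a few CPM most.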

Other observations

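A list of retinoid genes was written after the values of CYP26B1, DHRS3, STRA6 and RARRES1 had been seen, so it is a description and gets no test. Of 25 genes 20 were measured. At 500 µg/mL 2 were higher with Yijin-tang, RDH11 (log2 fold change 0.28) and ALDH1A3 (0.30), and the same 4 seen first were lower, with a list median of -0.20. Without replicate 2 of Okbyeongpung-san 0 were called higher and 2 lower, and the median was 0.01. Between 500 and 20 µg/mL edgeR called 0 of the 20 in either direction with Yijin-tang, beside 0.286% of all genes higher and 0.418% lower. With Okbyeongpung-san 4 were higher, beside 0.979% of all genes. They were the same 4 genes seen first, so the share of all genes is no background for this count.

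Single members of other lists were called between the extracts at 500 µg/mL. PSAT1, a serine synthesis enzyme, had 359.9, 362.9 and 376.9 CPM with Yijin-tang, against 277.7 and 326.4 CPM with Okbyeongpung-san. HSPA5, the main chaperone of the endoplasmic reticulum, had 676.8, 699.1 and 707.9 CPM with Yijin-tang, against 615.7 and 613.0 CPM with Okbyeongpung-san. P4HA1, a collagen prolyl hydroxylase, had 43.2, 46.3 and 46.5 CPM with Yijin-tang, against 34.7 and 38.2 CPM with Okbyeongpung-san. PDK4, a kinase that restrains pyruvate dehydrogenase, had 30.9, 33.0 and 36.0 CPM with Yijin-tang, against 43.2 and 48.9 CPM with Okbyeongpung-san. The imprinted RNA H19 had 83.7, 83.7 and 87.1 CPM with Yijin-tang, against 154.0 and 110.1 CPM with Okbyeongpung-san. Groups did not overlap in these 5 genes, which were chosen after their values were seen. None of the 5 passed without replicate 2 of Okbyeongpung-san, with adjusted p-values of 0.562, 0.411, 0.339, 0.0641 and 0.599.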
